A study of Saccharomyces cerevisiae with 12 samples.

Results

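Spt4-AA and wild type yeast cells were compared after 15 min in 0.4 M NaCl, to find which functions are expressed at another level when the Hog1 phosphorylation sites of Spt4 are missing. The comparison took every library of both stressed groups, 3 of the Spt4-AA mutant and 3 of the wild type among the 12 libraries of the series, and covered 6040 of the 7126 genes in the count table. Spt4-AA cells carry the T42A and S43A changes in TAP-tagged Spt4, and the wild type carries the same tag on unchanged Spt4. In both strains the tagged gene sits at its own locus under its own promoter, in the BY4741 background (*MATa*, with deletions at *HIS3*, *LEU2*, *MET17* and *URA3*). The cultures grew at 30 °C in rich medium to mid-log phase before the salt was added, and the other 6 libraries, 3 of each strain, came from cultures that received none. The 3 libraries of a group are described as biological replicates. The mutant is a single strain, so other differences between it and the wild type cannot be told apart from the 2 substitutions.

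*SPT4* (YGR063C) lies on chromosome VII of the R64 genome (617516 to 617824, minus strand) and encodes a small subunit of the Spt4-Spt5 elongation complex. The coding bases around the mutated residues are given because the counts cannot show the change itself. They are the reference bases 112 to 141 of the coding sequence (chrVII:617684-617713, minus strand), with the codons of residues 42 and 43 in capitals.
SPT4 codons 42 and 43: acaatggaatgtACGTCGccttctttcgag
*SPT4* had 17.2, 19.2 and 12.8 CPM (counts per 1000000 counts of a library after TMM scaling) in Spt4-AA cells, against 21.1, 19.8 and 18.2 CPM in wild type cells. The strains overlapped, and the log2 fold change (log2FC, mutant minus wild type throughout) was -0.27 with a standard error (SE) of 0.18 (adjusted p = 0.23). All adjusted p-values came from the quasi-likelihood F-test of edgeR and were corrected over all genes tested by the method of Benjamini and Hochberg.

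Spt4 and Spt5 travel with RNA polymerase II and help it to cross the gene body. Hog1 is the kinase that yeast cells activate upon osmostress. The response to such a stress has an arm that is switched off and an arm that is switched on. Cells cut back on making ribosomes, a large expense of a growing cell, and the genes for ribosomal proteins, for ribosome assembly and for RNA polymerase I are turned down together. Many assembly genes carry a pair of promoter elements named PAC and RRPE, which the repressors Dot6, Tod6 and Stb3 bind. At the same time the activators Msn2 and Msn4 turn on genes with stress response elements (STRE), among them genes for trehalose, glycogen, antioxidants and protective small proteins.

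Between the stressed strains 661 genes were altered, with 468 higher in Spt4-AA cells (7.75% of the genes tested) and 193 lower (3.2%). A gene counts as altered, and is called higher or lower here, at an adjusted p under 0.05 and at least a 2-fold difference. Higher genes made up 70.8% of the altered ones, against 44.4% when the libraries were scaled by their totals and 30.1% when they were scaled to *ENO1*. Most calls were of moderate size, since 49 of the higher and 14 of the lower genes differed by more than 4-fold. Without stress 29 genes (0.48%) were altered between the same strains. The 54 lists of genes by function that were examined held 1540 of the 6040 genes tested. At least 1 list held 270 of the 468 higher and 49 of the 193 lower genes. Listed genes were thus about as common among the lower genes as among all genes tested, and more common among the higher ones. Libraries of the strains did not overlap in 643 of the 661 altered genes, and in 50.5% of all genes tested.

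The 6 stressed libraries held 13195631 to 17873409 counts. The first principal component of their log2 counts, normalized as above, took up 72% of the variance and set the strains apart, with replicate 3 of the mutant (15.38) nearer to the wild type (-31.07 to -21.68) than replicates 1 and 2 (29.06 and 33.28). Over the higher genes, the median distance from the wild type mean was 1.39, 1.55 and 1.03 on the log2 scale in mutant replicates 1, 2 and 3. Replicates 1 and 2 of the mutant carry library numbers that lie apart from those of the other 10 libraries, and no source used here says what the numbers stand for. A term for those 2 libraries leaves the mutant to be judged by its replicate 3 alone and gave 251 higher and 126 lower genes. Without replicate 3 there were 550 higher and 324 lower. The count of *LEU2*, *MET17* and *URA3*, which these strains lack, was 139 in mutant replicate 2 and at most 2 in the other 5 libraries. Markers of *MATa* cells were present in every library, while the alpha-cell markers *MF(ALPHA)1* and *MF(ALPHA)2* had 1 to 14 counts, *STE3* 54 to 83 and *SAG1* 520 to 837. Values are shares of the poly(A) RNA of a whole culture, so fewer cells that express a gene and less of its RNA per cell cannot be told apart.

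Genes that build ribosomes were higher in Spt4-AA cells. Of 152 assembly factors tested, 82 were higher in Spt4-AA cells and none was lower, against 7.75% higher among all genes. They comprise 42 of the 74 factors of the small subunit (SSU) processome and 40S assembly and 40 of the 78 factors of 60S assembly. The median log2FC was 1.13 in the first list and 1.10 in the second, against -0.02 over all genes tested. Together the 152 genes took 0.313, 0.288 and 0.350% of the counts in the mutant libraries, against 0.158, 0.167 and 0.195% in the wild type libraries. Without stress they took 1.79, 1.59 and 1.59% in the mutant and 1.79, 1.51 and 1.61% in the wild type. The stressed mutant thus held more of these RNAs than the stressed wild type, and both held less than either strain without salt.

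**Figure D1:**
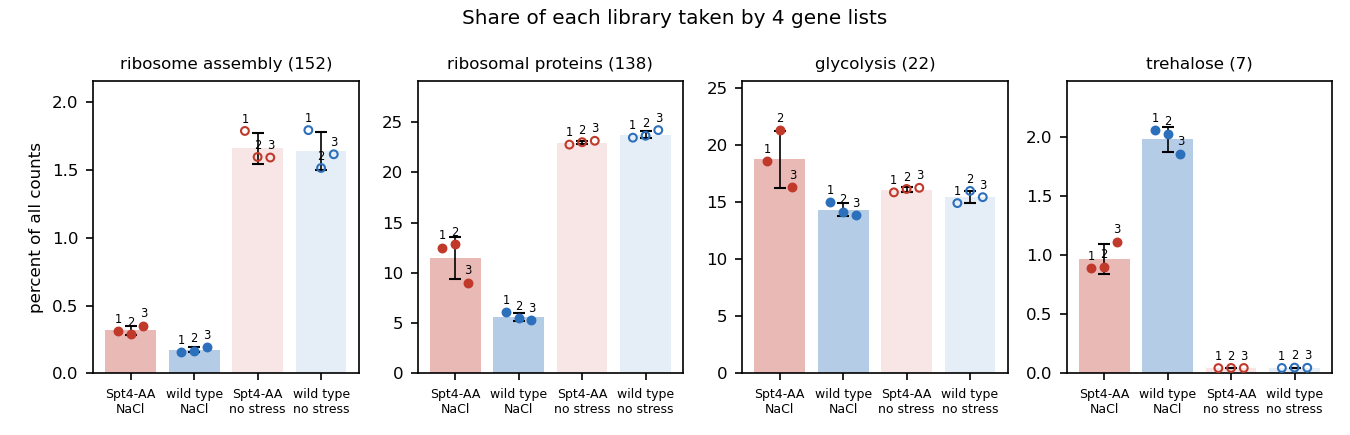
Share of all counts (percent, vertical axis) taken by 4 gene lists in each library, with bars for the mean, error bars for the SD of 3 libraries and the replicate number above each point. In NaCl the ribosome assembly and ribosomal protein shares of the 3 Spt4-AA libraries lie above those of the 3 wild type libraries and the trehalose shares below them, while the unstressed strains overlap in the assembly shares.

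*NOG2*, a nucleolar GTPase that acts late in 60S assembly, had 17.6, 19.8 and 18.9 CPM in Spt4-AA cells, against 1.91, 2.58 and 2.43 CPM in wild type cells. The strains lay far apart in every library, with a log2FC of 3.02 (SE 0.12, edgeR adjusted p = 2.18e-09). Without stress *NOG2* averaged 173 CPM in the mutant and 179 CPM in the wild type. *NOG1*, another GTPase of 60S assembly, had 56.8, 78.02 and 54.6 CPM in the mutant, against 7.81, 8.96 and 7.79 CPM in the wild type (log2FC 2.94, SE 0.14, edgeR adjusted p = 9.78e-09). *BRX1*, needed for an early step of 60S assembly, had 17.3, 17.9 and 15.9 CPM in the mutant, against 2.34, 2.00 and 2.62 CPM in the wild type (log2FC 2.87, SE 0.12). In these 3 genes, which were picked for large differences without overlap, the replicates of either strain varied less than the gap between the strains. *RRS1* (log2FC 2.81, SE 0.17), which helps to place the 5S particle in the large subunit, and *SYO1* (log2FC 2.66, SE 0.23), the import chaperone of Rpl5 and Rpl11, were higher as well. *SYO1* and the RNA helicase gene *DRS1* (log2FC 2.36) were low in the stressed wild type, at 0.676, 0.515 and 0.548 and at 1.84, 0.966 and 1.22 CPM.
On the small subunit side *NSR1*, the yeast nucleolin, had 104, 157 and 101 CPM in Spt4-AA cells, against 17.03, 19.6 and 12.5 CPM in wild type cells. Its log2FC was 2.88 (SE 0.20, edgeR adjusted p = 1.38e-07), and its unstressed means were 1077 CPM in the mutant and 1057 CPM in the wild type. *PWP2*, whose product is part of the UTP-B complex of the SSU processome, had 33.8, 38.7 and 39.05 CPM in the mutant, against 7.25, 9.15 and 8.09 CPM in the wild type, a log2FC of 2.19 (SE 0.11). The SSU processome genes *BFR2* (log2FC 2.53, SE 0.30) and *UTP23* (log2FC 2.23, SE 0.27) stood at or below about 1 CPM in the stressed wild type, with 0.307, 1.03 and 0.913 CPM for *BFR2* and 0.307, 0.709 and 0.487 CPM for *UTP23*. Each of the assembly genes named here was also called without replicate 3 of the mutant and with the term for library numbers.

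PAC and RRPE were looked for in the promoters, taken as 250 bases before to 50 after the start codon in R64. PAC was matched as GATGAG and RRPE as AAAAATTTT, on both strands, and the 2 motifs share no bases with each other in the stretches printed, where any further copy is left in lower case. Of the 82 higher assembly factors, 93.9% held PAC, 78% held RRPE and 73.2% held both, against 20.3%, 7.23% and 3.74% of all genes tested. In 41 of the 82 (50%) both motifs stood within one stretch of 30 bases before the start codon, against 2.04% of all genes tested. The stretches of the 6 such genes with the largest differences are shown, since the same pair recurs in each of them, in either order. Capitals mark 1 pair per gene, and every stretch is written 5′ to 3′ on the strand of its gene.
NOG2: ccgatgCTCATCgcAAAAATTTTtcgcttg
NOG1: gcagCTCATCgcaaagAAAAATTTTcacct
BRX1: gactgAAAAATTTTagatgCTCATCgcgat
RRS1: cataAAAATTTTTccaagtGATGAGatgag
SYO1: attcagAAAATTTTTcatCTCATCtcatct
BFR2: tggAAAATTTTTcaatacgcGATGAGatga
They lie at chrXIV:723270-723299, minus strand for *NOG2*, chrXVI:370831-370860, plus strand for *NOG1*, and chrXV:186859-186888, minus strand for *BRX1*. Those of the other three are at chrXV:868200-868229, plus strand for *RRS1*, chrIV:340305-340334, minus strand for *SYO1* and chrIV:1059498-1059527, plus strand for *BFR2*. Whether a factor binds there was not measured. Among the 212 higher genes with a promoter window that were neither assembly factors nor ribosomal proteins, 40.6% held PAC and 20.8% held RRPE. The 74 SSU and 78 60S factors as a whole, called or not, held PAC in 91.9% and 88.5%. They held RRPE in 62.2% and 64.1% and both motifs in 58.1% and 56.4%, so both motifs are common in these lists whether or not a member was called.

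**Figure D2:**
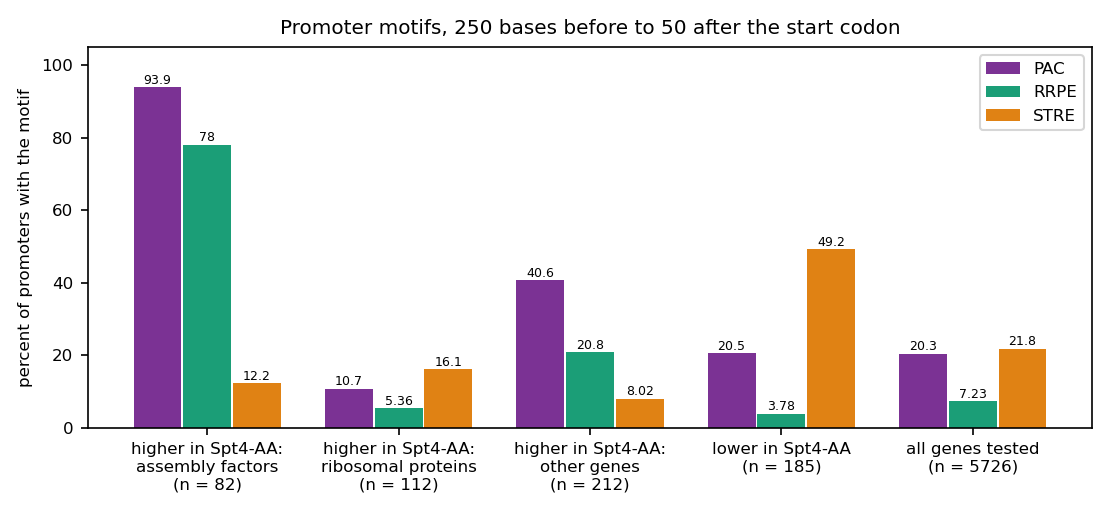
Percent of promoters (vertical axis) that hold PAC (GATGAG), RRPE (AAAAATTTT) or STRE (AGGGG) on either strand, for 3 sets of genes higher in Spt4-AA cells, for the genes lower there and for all genes tested. PAC and RRPE stand out in the higher assembly factors (93.9% and 78%) and STRE in the lower genes (49.2%), and the higher ribosomal protein genes hold each of the 3 less often than all genes tested.

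The repressors known to bind these elements differed too. *TOD6*, a PAC-binding repressor, was higher in Spt4-AA cells with 3.60, 5.21 and 3.34 CPM, against 1.48, 2.19 and 1.34 CPM in wild type cells (log2FC 1.26, SE 0.22, edgeR adjusted p = 0.000346). Its paralog *DOT6* fell by less than 2-fold, to 157, 192 and 171 CPM in the mutant, against 288, 273 and 235 CPM in the wild type (log2FC -0.61, SE 0.10, edgeR adjusted p = 0.000214). *STB3*, whose product binds RRPE and which was chosen after its values were seen, had a log2FC of -0.83 (SE 0.17, edgeR adjusted p = 0.0012).

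RNA polymerase I, which makes the ribosomal RNA, followed the assembly factors. Of 15 genes for its subunits and initiation factors 7 were higher and none was lower (median log2FC 0.78, against -0.02 over all genes), and 7 were higher with the library number term too. Those higher are 46.7% of the list, beside 7.75% of all genes. *RPA135*, the second largest subunit, had 42.2, 66.8 and 47.5 CPM in Spt4-AA cells, against 12.8, 11.8 and 9.80 CPM in wild type cells (log2FC 2.18, SE 0.16, edgeR adjusted p = 2.59e-07). *RPA43* had a log2FC of 2.21 (SE 0.19), the largest subunit *RPA190* one of 1.70 (SE 0.10) and the core factor *RRN11* one of 1.73 (SE 0.25). In none of these 4 genes did the strains overlap, as in 643 of the 661 altered genes and 50.5% of all genes tested.
Of 35 tRNA modification enzymes 7 were higher, 20% of the list beside 7.75% of all genes, and none was lower (median 0.52). *GCD10*, a subunit of the enzyme that methylates adenine 58 of tRNA, had 19.99, 21.86 and 18.5 CPM in the mutant, against 5.10, 4.96 and 5.17 CPM in the wild type (log2FC 1.98, SE 0.11). The methyltransferase genes *TRM11* and *TRM82* had a log2FC of 1.96 and of 1.94, and *DUS3*, which makes dihydrouridine, one of 1.42. Of 18 genes for the RNA exosome and for H/ACA particles, which guide pseudouridine formation, 4 were higher, and 2 of 18 with the library number term. The 4 are 22.2% of the list, beside 7.75% of all genes. *CBF5*, the pseudouridine synthase, had 77.9, 80.6 and 71.4 CPM in the mutant, against 30.7, 29.1 and 29.7 CPM in the wild type (log2FC 1.36, SE 0.09), and *MTR4*, the helicase that feeds the exosome, had a log2FC of 1.35 (SE 0.14). The others were *GAR1* (1.16) and *NHP2* (1.01), of which *NHP2* was under the 2-fold limit without mutant replicate 1 or 2 (0.97 each) or wild type replicate 3 (0.996). RNA polymerase III had 2 of 18 genes higher, 11.1% of the list beside 7.75% of all genes. They were *RPC25* (log2FC 1.42) and *RPC17* (1.05), and *RPC17* was under the 2-fold limit without replicate 2 or 3 of the wild type (0.928 and 0.998). RNA polymerase II had 1 of 14 higher (7.14%), the subunit *RPB8* that all 3 polymerases share (log2FC 1.13, SE 0.12).
Entries for small nucleolar and nuclear RNAs were counted after their values were seen. Of 47 such entries tested, 26 were higher (55.3%, beside 7.75% of all genes) and none was lower (median log2FC 1.07). *snR42* had 4.43, 5.14 and 3.39 CPM in Spt4-AA cells, against 0.799, 0.902 and 0.852 CPM in wild type cells, and *snR84* had 3.88, 3.32 and 4.59 CPM in the mutant, against 0.984, 0.644 and 0.730 CPM in the wild type. Mature small nucleolar RNAs end without a poly(A) tail, and these libraries were selected for poly(A), so they count the forms that the selection let through. With the library number term 11 of the 47 were called higher. Table entries without a gene in the R64 annotation made up 62 of the 468 higher genes and 8 of the 193 lower ones.

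Ribosomal proteins formed the largest single group. Of 138 genes for cytoplasmic ribosomal proteins 112 were higher in Spt4-AA cells (81.2%, beside 7.75% of all genes) and none was lower. They comprise 69 of 82 for the large and 43 of 56 for the small subunit. All 138 had a positive log2FC, with a median of 1.23 and a range of 0.41 to 2.48. They took 12.5, 12.8 and 9.03% of the counts in the mutant, against 6.10, 5.48 and 5.26% in the wild type. Mutant replicate 3 lay between its 2 sister libraries and the wild type in this group. Without stress the shares were 22.8, 23.00 and 23.1% in the mutant and 23.4, 23.6 and 24.2% in the wild type.
*RPS3* had 1457, 1862 and 806 CPM in Spt4-AA cells, against 494, 400.5 and 331 CPM in wild type cells (log2FC 1.75, SE 0.24, edgeR adjusted p = 5.16e-05). *RPS22A* had 1103, 1244 and 580.2 CPM in the mutant, against 312, 285 and 250.3 CPM in the wild type (log2FC 1.79, SE 0.21). In both genes all 3 mutant libraries stood above the wild type, replicate 3 by the least. *RPL39*, which encodes one of the shortest ribosomal proteins, had 553, 620.3 and 132 CPM in the mutant, against 97.00, 68.1 and 69.4 CPM in the wild type (log2FC 2.48, SE 0.40), so most of its difference came from mutant replicates 1 and 2. With the term for library numbers its log2FC was 0.75 and that of *RPS3* was 0.98. *RPL22B*, the minor copy of its pair, had 61.1, 60.6 and 39.99 CPM in the mutant, against 16.6, 16.1 and 18.5 CPM in the wild type (log2FC 1.66, SE 0.17).
The count of calls in this group depended on the library that stood apart. With the term for library numbers 6 of the 138 were called higher and the median was 0.67, and without mutant replicate 3 there were 131 with a median of 1.45. For assembly factors the same settings gave 81 calls with a median of 1.19, and 79 with a median of 1.08. Removing each library's trend of level on gene length left 75 ribosomal protein calls and 92 assembly calls, and the coding length had a median of 433.5 bp in the first group and 1516 bp in the second. Scaling by library totals or to *ENO1* moved the median of all genes by -0.20 and -0.31 and left 69 and 39 ribosomal protein genes called higher. Relative to that shift the group's median was 1.22 and 1.19. Of 72 ribosomal proteins of mitochondria none was called in either direction by edgeR or DESeq2 (at an unadjusted p under 0.05 in edgeR, 7 above and 17 below the wild type), with a median of -0.07.

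**Figure D3:**
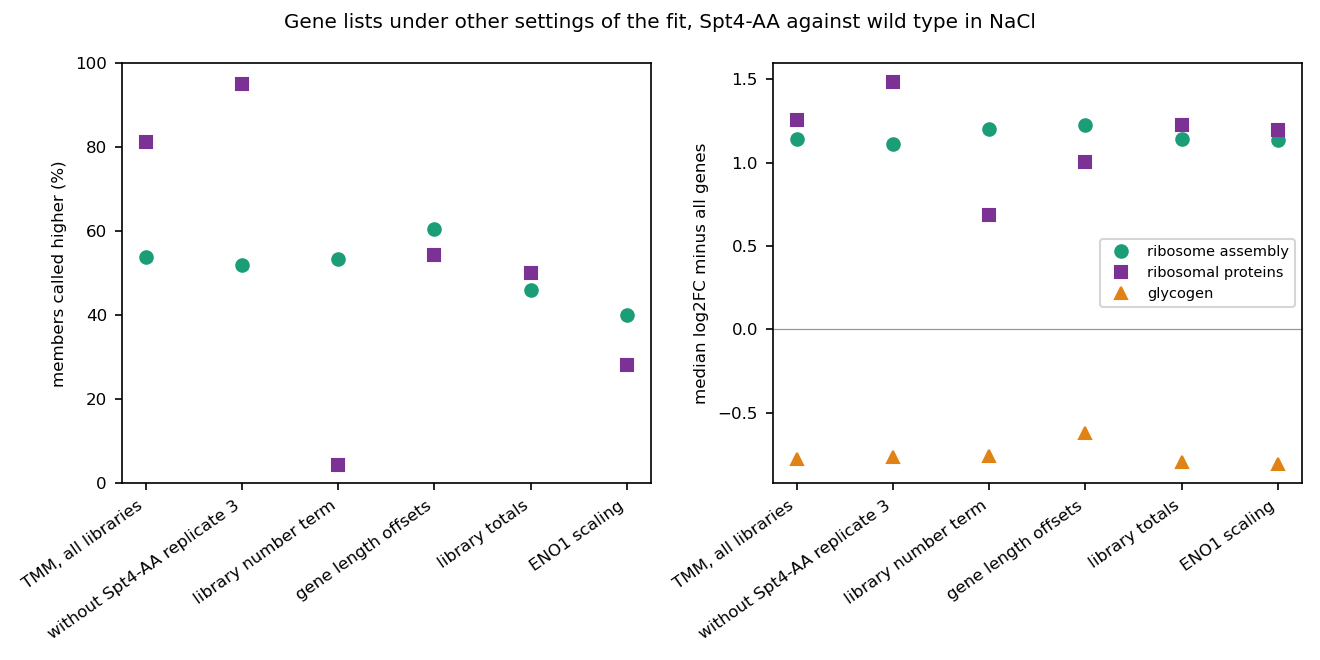
Ribosome assembly factors (152), ribosomal proteins (138) and glycogen genes (15) under 6 settings of the fit, as the percent of members called higher in Spt4-AA cells (left, the first 2 lists) and as the median log2FC minus that of all genes (right). Ribosomal protein calls fall to 6 of 138 with the library number term while assembly calls stay between 61 and 92 of 152 under all 6 settings, and every median keeps its sign.

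Enzymes that supply nucleotides were the next group. Of 30 genes for GTP, pyrimidine and salvage pathways 10 were higher and none was lower (median 0.77), and 6 were higher with the library number term. The 10 are 33.3% of the list, beside 7.75% of all genes. *URA7*, the major CTP synthase, had 25.1, 36.2 and 27.6 CPM in Spt4-AA cells, against 3.75, 4.77 and 3.59 CPM in wild type cells, with unstressed means of 478 CPM in the mutant and 469 CPM in the wild type. Its log2FC of 2.87 (SE 0.15, edgeR adjusted p = 1.97e-08) was close to those of the leading assembly factors. *RNR1*, the large subunit of ribonucleotide reductase, had 204, 236 and 218 CPM in the mutant, against 59.6, 54.6 and 54.7 CPM in the wild type (log2FC 1.96, SE 0.10). *AAH1*, adenine deaminase, had a log2FC of 2.08 (SE 0.28), and *IMD4*, an IMP dehydrogenase on the path to GTP, one of 1.66 (SE 0.14). None of 16 purine synthesis genes was called by edgeR or DESeq2 (at an unadjusted p under 0.05 in edgeR, 11 above and 2 below the wild type).
Of 39 translation factors 3 were higher, 7.69% of the list and thus near the 7.75% of all genes, and 1 was lower. *YEF3*, the fungal elongation factor 3, had 1314, 1836 and 1272 CPM in the mutant, against 411, 362 and 326 CPM in the wild type (log2FC 2.01, SE 0.17, edgeR adjusted p = 5.11e-07). Its unstressed means were 8593 CPM in the mutant and 8744 CPM in the wild type. The other factors called were *TEF4* (1.02), *ANB1* (1.03) and, lower, *TIF4632* (-1.10), but *YEF3* was the single one called without mutant replicate 2 or without wild type replicate 3. The ribosome-bound chaperone gene *SSB1* had 1748, 2377 and 1187 CPM in the mutant, against 594, 525 and 474 CPM in the wild type (log2FC 1.74), and 56.8% of its 50-base windows are unique, as it shares sequence with *SSB2* (log2FC 1.28). *KAP123*, which carries ribosomal proteins into the nucleus, was the single karyopherin gene called of 22 (log2FC 1.45, SE 0.14). That is 4.55% of the list, beside 7.75% of all genes. *RKI1*, which makes ribose 5-phosphate, had a log2FC of 1.73 (SE 0.12).
Among amino acid synthesis genes 4 of 45 were higher, 8.89% of the list beside 7.75% of all genes, and none was lower (median 0.47). With the library number term 1 was called. The 4 were led by *LEU9* of the leucine pathway with 53.5, 67.9 and 65.1 CPM in Spt4-AA cells, against 24.03, 23.4 and 22.1 CPM in wild type cells (log2FC 1.42, SE 0.11). Next came *ILV3* (1.23), *LYS4* (1.16) and *ARO2* (1.07), and without mutant replicate 2 the list kept 2 calls, *LEU9* and *ILV3*. All 23 ergosterol synthesis genes had a positive log2FC, and 2 were called, 8.70% of the list beside 7.75% of all genes. *ERG3*, the C-5 sterol desaturase, had 515, 623 and 441 CPM in the mutant, against 168, 158 and 144 CPM in the wild type (log2FC 1.74, SE 0.14), while *ERG2* (1.02) was under the 2-fold limit without mutant replicate 2 (0.79) or wild type replicate 3 (0.95).
Of 29 cell wall genes 7 were higher and none was lower, with 3 higher under the library number term, 4 on library totals and 1 with scaling to *ENO1*. With all libraries and TMM factors the 7 are 24.1% of the list, beside 7.75% of all genes. *SCW10*, a glucanase of the wall, had 832, 1102 and 748 CPM in the mutant, against 236, 218 and 193 CPM in the wild type (log2FC 2.05, SE 0.14, edgeR adjusted p = 1.42e-07). *GAS1*, which lengthens wall glucan, had 1711, 2067 and 1608 CPM in the mutant, against 749, 726 and 669.9 CPM in the wild type (log2FC 1.33), and *CRH1*, which ties chitin to glucan, had a log2FC of 1.28. The mating pheromone gene *MFA2* was higher with 297, 343 and 151 CPM in the mutant, against 74.6, 61.5 and 70.95 CPM in the wild type (log2FC 1.93, SE 0.22), as was *MSB2*, a mucin at the head of the HOG pathway (log2FC 1.32, SE 0.11).
Of 22 cyclins and regulators of cyclin-dependent kinases 3 were higher, 13.6% of the list beside 7.75% of all genes, and none was lower. They were *PCL1* with 117, 106 and 94.3 CPM in Spt4-AA cells, against 40.5, 40.2 and 44.2 CPM in wild type cells (log2FC 1.34), *PCL2* (1.19) and the G1 cyclin gene *CLN1* (1.09), and without mutant replicate 2 there were 5. Glycolysis had 2 of 22 genes called, 9.09% of the list beside 7.75% of all genes. They were *ENO2* (log2FC 1.04, SE 0.21) and *ADH1* (1.02, SE 0.23). Neither was called without mutant replicate 2 (0.77 for *ENO2* and 0.76 for *ADH1*), *ENO2* was not without wild type replicate 3 (0.97), and *ADH1* was not without mutant replicate 1 (0.97) or wild type replicate 2 (0.98). The list took 18.6, 21.3 and 16.3% of the counts in the mutant, against 15.00, 14.2 and 13.9% in the wild type.

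**Figure D4:**
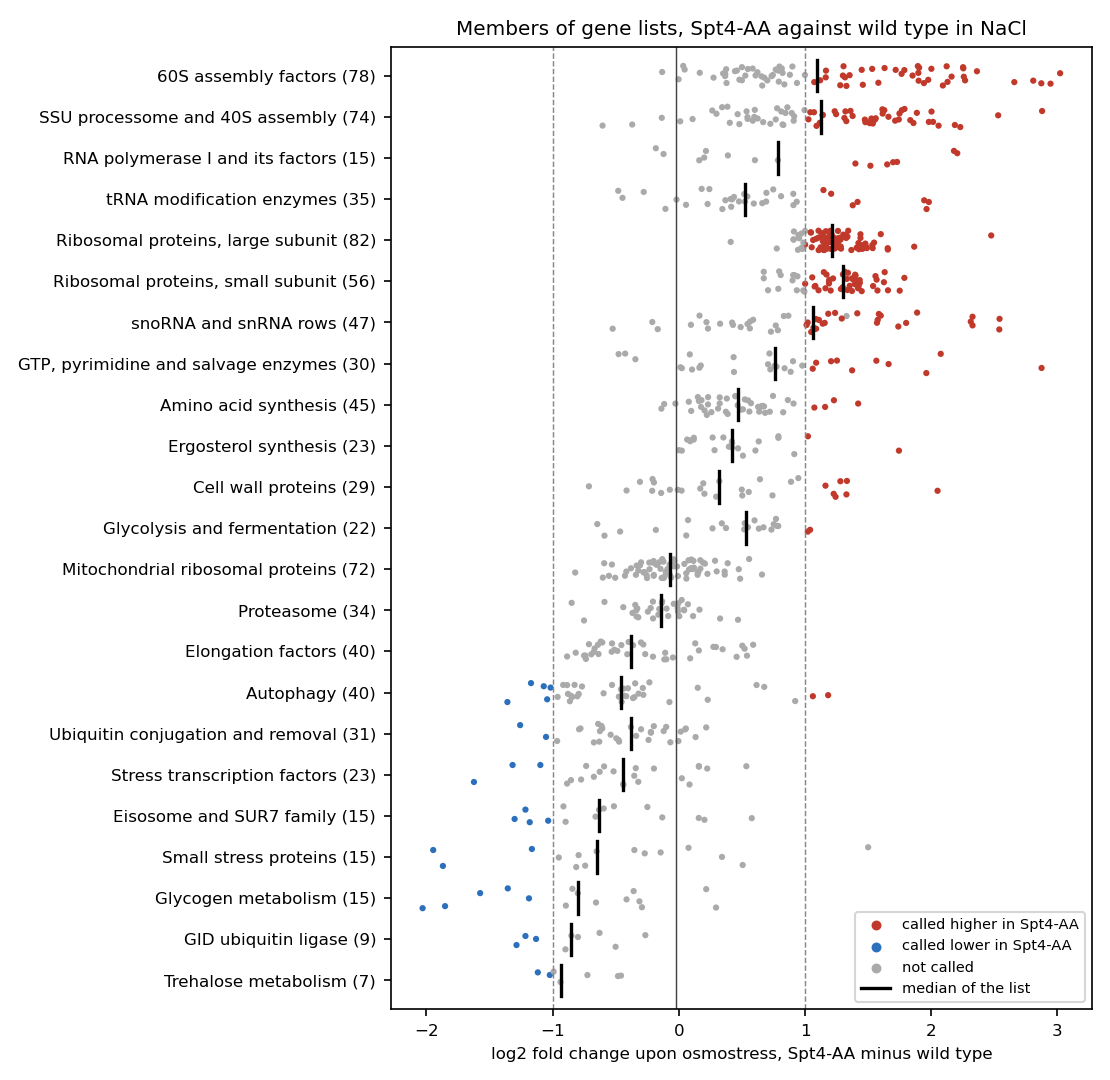
Log2 fold change of each member of 23 gene lists (points; number tested in brackets) in NaCl, Spt4-AA minus wild type, with the list median as a black bar, the median of all genes as a thin line and the 2-fold limits dashed. Ribosome assembly, RNA polymerase I and ribosomal protein genes lie to the right with no member called lower, and trehalose, glycogen, eisosome and small stress protein genes lie to the left with no member called higher.

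Of the 193 lower genes 144 were on none of the lists, and those that were included genes of storage carbohydrates. All 7 trehalose genes had a negative log2FC with an adjusted p under 0.05, with a median of -0.94. Of them 2 went past the 2-fold limit (28.6%, beside 3.2% of all genes). They took 0.892, 0.904 and 1.12% of the counts in Spt4-AA cells, against 2.06, 2.03 and 1.86% in wild type cells. *TSL1*, a subunit of the trehalose synthase complex, had 2230.0, 2571 and 2420.0 CPM in the mutant, against 5748, 5290.0 and 4619 CPM in the wild type (log2FC -1.12, SE 0.13, edgeR adjusted p = 1.69e-05). *TPS2*, the phosphatase of the same complex, had 2283, 2451 and 2815 CPM in the mutant, against 5685, 5277 and 4368 CPM in the wild type (log2FC -1.02, SE 0.14), close to the limit. It was under the limit without replicate 1 of the mutant (-0.95) or of the wild type (-0.94). The same held with DESeq2 or RLE factors (-0.999 each) and with the library number term (-0.86). Both are long genes, and with the length trends removed *TSL1* had a log2FC of -0.74 and *TPS2* one of -0.70. Without mutant replicate 3 there were 4 calls among the 7 genes, and with DESeq2 there was 1.
Of 15 glycogen genes 5 were lower and none was higher (median -0.80), and the same number was lower with the library number term and without mutant replicate 3. The 5 lower genes are 33.3% of the list, beside 3.2% of all genes. *GPH1*, glycogen phosphorylase, had 282, 315 and 313 CPM in Spt4-AA cells, against 954, 898 and 856 CPM in wild type cells (log2FC -1.57, SE 0.10, edgeR adjusted p = 7.46e-08). *GDB1*, the debranching enzyme, had 327, 352 and 398 CPM in the mutant, against 1011, 940.2 and 805 CPM in the wild type (log2FC -1.35, SE 0.12). The members that moved both build and break down glycogen, since *GAC1* (log2FC -2.03, SE 0.26) and *GIP2* (-1.85, SE 0.23) encode subunits that bring the Glc7 phosphatase to glycogen synthase, and *GLG1* (-1.19) encodes a primer of glycogen.
Small stress proteins had 3 of 15 genes lower in NaCl (20%, beside 3.2% of all genes, median log2FC -0.65). Without stress 3 were lower as well (median -0.62), with *YGP1* in both sets. *SIP18* and *GRE1* are hydrophilins, small soluble proteins made upon water loss. *SIP18* had 25.4, 24.8 and 22.9 CPM in the mutant, against 102, 82.6 and 97.2 CPM in the wild type (log2FC -1.95, SE 0.13, edgeR adjusted p = 1.04e-07). *GRE1* had 71.7, 80.3 and 67.7 CPM in the mutant, against 288, 283 and 232 CPM in the wild type (log2FC -1.87, SE 0.14). In both genes the 3 mutant libraries lay within a narrow band far below the wild type, and the unstressed means were under 3 CPM in either strain. The secreted glycoprotein gene *YGP1* had 2053, 2190.0 and 2202 CPM in the mutant, against 4778, 4697 and 4964 CPM in the wild type (log2FC -1.16). It was lower without stress as well, with 154 CPM in the mutant and 421 CPM in the wild type.
In the pentose phosphate pathway 2 of 11 genes were lower (18.2%) and 1, *RKI1*, was higher (9.09%), with a median log2FC of 0.33. Of all genes tested 3.2% were lower and 7.75% higher. *GND2*, the minor 6-phosphogluconate dehydrogenase, had 97.3, 128 and 118 CPM in Spt4-AA cells, against 399.9, 412 and 356 CPM in wild type cells (log2FC -1.77, SE 0.12, edgeR adjusted p = 1.04e-07), and *SOL4*, the other lower gene, had a log2FC of -1.07. *CYC7*, the isoform of cytochrome c for low oxygen, had 48.6, 39.5 and 38.7 CPM in the mutant, against 134, 118 and 141 CPM in the wild type (log2FC -1.63, SE 0.15). The mitochondrial NADH dehydrogenase genes *NDE2* (-1.55) and *NDI1* (-1.24) were the other two of 39 respiratory genes called lower. In that list 7.69% were lower and 2.56% higher. *CYC1*, the main cytochrome c isoform, stood the other way (1.07), though not past the limit without mutant replicate 2 (0.82) or wild type replicate 3 (0.96). Among 32 genes of oxidant defence the glutathione peroxidase *GPX1* (-1.70, SE 0.18) and the peroxiredoxin *TSA2* (-1.27, SE 0.14) were lower and the glutaredoxin *GRX8* (1.15) was higher. These are 6.25% of the list lower and 3.1% higher. The aldo-keto reductases *GCY1* (-1.19) and *YJR096W* (-1.28) were lower too, and *HXT5*, a hexose transporter of slow growth, had 650.3, 685 and 706 CPM in the mutant, against 1698, 1776 and 1575 CPM in the wild type (log2FC -1.31, SE 0.12).
Regulators were among the lower genes. *XBP1*, a stress-induced repressor, had 57.5, 66.5 and 72.2 CPM in Spt4-AA cells, against 214, 206 and 185 CPM in wild type cells (log2FC -1.62, SE 0.12, edgeR adjusted p = 2.56e-07), and *USV1* had a log2FC of -1.32 (SE 0.17). They were 2 of 3 lower genes among 23 stress transcription factors (13% of the list beside 3.2% of all genes, median -0.44). The other, *YAP6* (-1.10), was lost without mutant replicate 1 (-1.03, edgeR adjusted p = 0.0637) or wild type replicate 3 (-0.91), and without mutant replicate 3 there were 5. *MSN4* had a log2FC of -0.85 (SE 0.11, edgeR adjusted p = 4.48e-05) and *MSN2* one of -0.34 (SE 0.12, edgeR adjusted p = 0.0311), both chosen after their values were seen, and *MSN2* missed an adjusted p under 0.05 without mutant replicate 1 (-0.29) or 2 (-0.27) or wild type replicate 3 (-0.23). *YAK1*, a kinase that opposes growth when protein kinase A is low, had 79.1, 73.7 and 96.97 CPM in the mutant, against 235, 228 and 212 CPM in the wild type (log2FC -1.43, SE 0.11).
Of 40 autophagy genes 5 were lower (12.5%, beside 3.2% of all genes) and 2 were higher (5%, beside 7.75%), with a median of -0.46. *ATG39*, the receptor for turnover of the nucleus, had 9.63, 8.86 and 9.49 CPM in the mutant, against 23.4, 24.6 and 23.8 CPM in the wild type (log2FC -1.36, SE 0.18). *ATG1*, the kinase that starts autophagy, had 15.9, 10.4 and 24.4 CPM in the mutant, against 29.9, 36.4 and 48.4 CPM in the wild type (log2FC -1.17), and fell short of the limit without mutant replicate 2 (-0.92) or wild type replicate 3 (-0.97). *ATG9* (-1.07), *ATG13* (-1.04) and *ATG29* (-1.02) were the other lower genes, and *ATG5* (1.18) and *ATG41* (1.06) the higher ones. The lower count was 1 without mutant replicate 2, 8 without mutant replicate 3, 2 without wild type replicate 3 and 1 with the library number term. The GID ligase marks enzymes of glucose synthesis for breakdown, and its list was added after values were seen. All 9 genes were below the wild type in log2FC, and 3 were called (33.3%, beside 3.2% of all genes). They were *VID30* (log2FC -1.29, SE 0.23), *FYV10* (-1.22, SE 0.17) and *GID11* (-1.13, SE 0.12), and 1 was called with the library number term or with the length offsets.
Eisosome genes, which shape furrows of the plasma membrane, had 4 of 15 lower (26.7%, beside 3.2% of all genes) and none higher (median -0.63). The SUR7-family gene *YNL194C* had 191, 205 and 227 CPM in Spt4-AA cells, against 535, 530.5 and 469 CPM in wild type cells (log2FC -1.30, SE 0.09), and with the length trends removed it was the single call of the list. The others were *SEG2* (-1.22), *EIS1* (-1.18) and *PKH2* (-1.03), all under the limit without wild type replicate 3 (-0.95, -0.99 and -0.76). Outside the lists, *BAG7*, a GTPase activator for Rho1, had 4.26, 4.13 and 4.12 CPM in the mutant, against 17.8, 20.9 and 21.5 CPM in the wild type (log2FC -2.27, SE 0.19, edgeR adjusted p = 5.39e-07). *UIP4* had a log2FC of -1.99 (SE 0.20) and *HAB1* one of -1.93 (SE 0.22). *SPS100*, a gene of spore wall maturation, had 27.5, 26.9 and 32.7 CPM in the mutant, against 119, 133 and 137 CPM in the wild type (log2FC -2.16), and it overlaps a feature on the other strand over 946 bases, whose reads cannot be told apart where counting ignored strand.

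STRE was matched as AGGGG on both strands in the same promoter windows. It stood in 49.2% of the 185 lower genes that have a window, against 21.8% of all genes tested and 11.1% of the higher genes. At least 2 copies stood in 13% of the lower genes, against 3% of all genes tested and 0.739% of the higher genes. The stretches around the nearest copy before the start codon are shown for 6 lower genes. They are the genes named here with the largest differences that hold such a copy. AGGGG or its complement CCCCT is in capitals, to show that it occurs on either strand. Only genes whose 50-base windows are all unique were taken.
SPS100: ttgttgaaaattCCCCTaagacgttactca
UIP4: ctttccctctctCCCCTactttccttctct
GND2: aggttatcttcaCCCCTattttcattttaa
GPX1: ttCCCCTtctgttccctaattctatagggt
CYC7: taagtggccgcaAGGGGcaaagacaaaggc
NDE2: ctaataagtcagCCCCTccctttggagtgc
They lie in R64 at chrVIII:379322-379351, minus strand for *SPS100*, chrXVI:195504-195533, minus strand for *UIP4* and chrVII:1004448-1004477, plus strand for *GND2*. Those of the other three are at chrXI:390104-390133, minus strand for *GPX1*, chrV:80152-80181, minus strand for *CYC7* and chrIV:303061-303090, plus strand for *NDE2*. *PHO84*, *BAG7*, *GAC1*, *SIP18*, *HAB1*, *GRE1* and *GIP2*, which fell further than *GND2*, had no AGGGG on either strand in the 250 bases before the start codon.

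The osmostress genes that are probed most often did not move as a block. *STL1*, the glycerol importer, had 2087, 2139 and 2107 CPM in Spt4-AA cells, against 2340.0, 2454 and 2048 CPM in wild type cells. *ALD3*, an aldehyde dehydrogenase, had 2621, 2655 and 2549 CPM in the mutant, against 5192, 5200.0 and 4367 CPM in the wild type, and 59.6% of its 50-base windows are unique. *CTT1*, the cytosolic catalase, had 2954, 3373 and 2831 CPM in the mutant, against 5604, 5119 and 4011 CPM in the wild type. For *STL1* the strains overlapped and for the other two they did not. *GRE2*, a reductase, stood the other way with 2540.0, 2871 and 2152 CPM in the mutant, against 1950.0, 1832 and 1634 CPM in the wild type. None of the 4 reached 2-fold with TMM factors. The log2FC was -0.92 for *ALD3* and -0.69 for *CTT1* (edgeR adjusted p = 3.59e-05 and 0.00196), 0.48 for *GRE2* (edgeR adjusted p = 0.00524) and -0.11 for *STL1* (edgeR adjusted p = 0.39). Scaling to *ENO1* left *GRE2* at 0.14 and past no threshold, and put *STL1* at -0.42 with an edgeR adjusted p under 0.05. This scaling moved the median of all genes by -0.312 and scaling by library totals moved it by -0.205. Either shift is larger than the distance of *ALD3* from the 2-fold limit. In glycerol metabolism and transport 2 of 16 genes were lower (12.5%, beside 3.2% of all genes) and none was higher. They were *GCY1* and *GUT2* (log2FC -1.03, SE 0.09, and -0.98 without mutant replicate 1). The glycerol synthesis genes *GPD1* (0.17) and *GPP2* (0.24) were not called. Of 22 genes of the HOG pathway and its phosphatases 1 was higher, *MSB2*, and 1 was lower, *RCK1* (log2FC -1.11, SE 0.17), which fell short of the limit without mutant replicate 1 (-0.99). Each is 4.55% of the list, where 7.75% of all genes were higher and 3.2% lower.

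**Figure D5:**
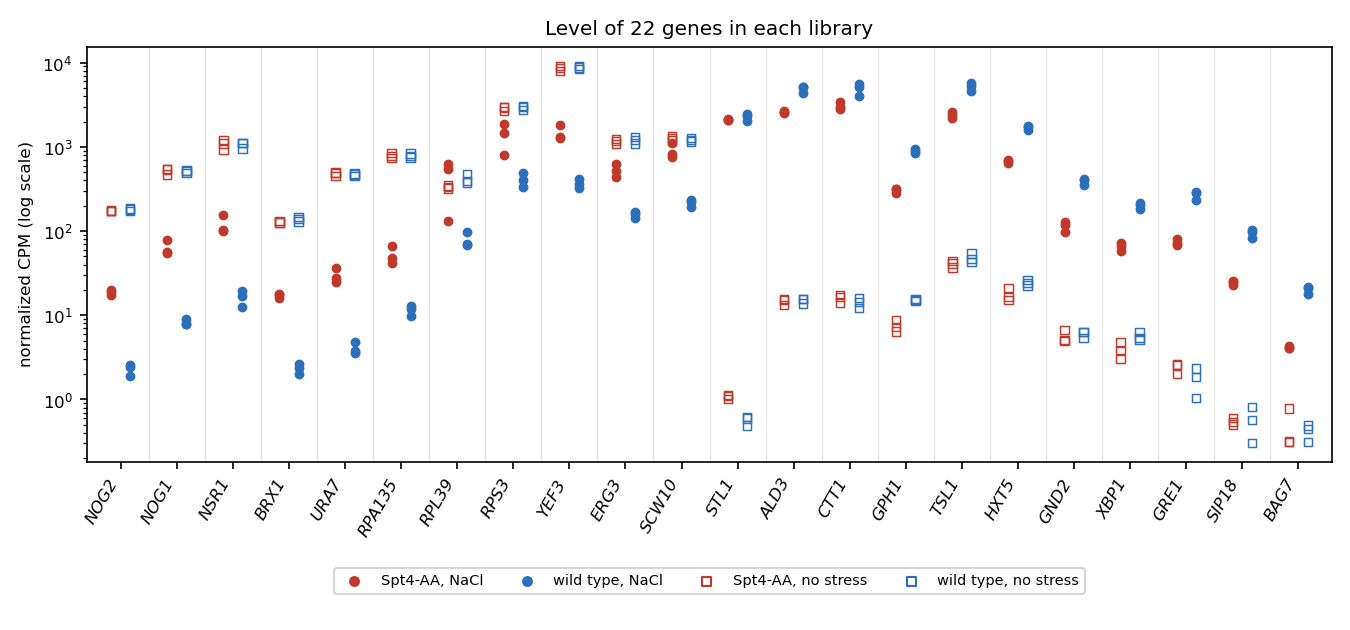
Normalized CPM (log scale, vertical axis) of 22 genes in each of the 12 libraries, with Spt4-AA in red left of wild type in blue, filled circles for NaCl and open squares for no stress. Most of the genes shown were picked among the altered ones, of which 643 of 661 do not overlap between the strains in NaCl (50.5% of all genes tested). In NaCl the strains do not overlap in any of the genes shown but *STL1*, and the open squares of *NOG2* to *YEF3* lie above every filled circle except in *RPL39*.

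Some genes differed between the strains with or without salt, and they are given here with members of their families that were called upon osmostress. *PHO84*, the high-affinity phosphate transporter, had 1.22, 3.38 and 0.469 CPM in stressed Spt4-AA cells, against 35.6, 40.9 and 43.6 CPM in stressed wild type cells (log2FC -4.65, SE 0.32, edgeR adjusted p = 1.29e-07). Without stress it averaged 1.64 CPM in the mutant and 303 CPM in the wild type, and 1764 of its bases overlap features on the other strand. *PHM7* (log2FC -1.46) and *PHM8* (-1.13) were the other two of 18 genes of the phosphate regulon called lower upon osmostress. The 4 copies of *ASP3*, which encode a wall asparaginase made upon nitrogen starvation, had a log2FC between -6.37 and -5.90. No 50-base window of a copy is unique in R64, so how reads were divided among the copies is not known. *ASP3-1* had 0, 158 and 0 counts in the mutant, against 3426, 3023 and 2915 counts in the wild type, and the reads of the mutant came from replicate 2, the library with the counts on *LEU2*, *MET17* and *URA3*. Without stress *ASP3-1* averaged 0.0259 CPM in the mutant and 243 CPM in the wild type. The reading frames *YLR156W*, *YLR157W-D*, *YLR159W* and *YLR161W* among these copies had at most 3 counts in every mutant library. Set against 3 counts per mutant library, a limit for counting error only, they were at least 9.61-, 6.15-, 9.13- and 7.44-fold lower in that order.
In the other direction *DAN1*, a wall protein of low oxygen, had 6.31, 8.19 and 4.28 CPM in stressed mutant cells, against 0.553, 0.580 and 0.974 CPM in stressed wild type cells (log2FC 3.13, SE 0.29, edgeR adjusted p = 1.9e-06). Without stress the means were 18.8 CPM in the mutant and 3.62 CPM in the wild type. The same families of DAN, TIR and PAU wall proteins had 5 of 29 genes higher, 17.2% of the list beside 7.75% of all genes. Besides *DAN1* they were *TIR1* (log2FC 1.30, SE 0.15), *PAU24* (1.17), *TIR2* (1.01) and *TIR3* (1.01). The calls numbered 3 without mutant replicate 1 or without wild type replicate 3, and 1 with scaling to *ENO1*. With the library number term the log2FC was 0.86 for *TIR1*, 0.67 for *PAU24*, 0.28 for *TIR2* and 0.60 for *TIR3*. By the contrast of the strain difference in NaCl minus that without stress, *TIR1* (0.80), *TIR2* (1.04), *TIR3* (1.18) and *PHM7* (-1.14) differed more in NaCl. Their edgeR adjusted p was 0.0112, 0.028, 0.00527 and 0.000738. For *PHM8* (-0.47) and *PAU24* (0.43) the contrast had an edgeR adjusted p of 0.232 and 0.444. *GPH1* (log2FC without stress -1.02) was lower in both conditions, as was *YGP1*. In all, 6 of the 468 higher and 11 of the 193 lower genes were called in the same direction without stress.

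The remaining lists had few calls or none, where 7.75% of all genes were higher and 3.2% lower. None of 40 elongation factors was called by edgeR or DESeq2 (at an unadjusted p under 0.05 in edgeR, 6 above and 18 below the wild type, median -0.38), nor any of 34 proteasome genes (2 above and 12 below, median -0.14) or 25 Mediator genes (5 above and 9 below, median -0.06). The same tools called none of 19 mRNA decay genes (2 above and 12 below), 10 histone genes (6 above and 1 below), 14 genes of the CCT chaperonin and prefoldin (7 above and 1 below) and 15 genes of the vacuolar ATPase (2 above and 1 below). None called means none past the 2-fold limit: at an adjusted p under 0.05 with no limit on the fold, 5 elongation factors were above and 17 below the wild type, 2 proteasome genes above and 8 below, 4 Mediator genes above and 9 below, and 2 mRNA decay genes above and 11 below. Without mutant replicate 3 the lower calls were 4 elongation factors, 2 Mediator genes, 2 mRNA decay genes and 1 proteasome gene. Leaving out wild type replicate 1 gave 1 elongation factor and 1 proteasome gene lower.
The prolyl-tRNA synthetase gene *YHR020W* (log2FC 1.31) was higher among 22 cytosolic tRNA synthetases, and the proton pump regulator *PMP2* (1.51) among 17 of ion transport. The mannose enzyme *SEC53* (1.02) was higher among 46 secretory genes, but not without mutant replicate 1 or 2 or wild type replicate 3 (0.89 to 0.99), and the spliceosome subunit *SMX3* (1.11) among 33 splicing genes, but not without mutant replicate 2 (0.80). Besides *MFA2*, *AGA1* (1.02) was higher among 17 mating genes and was under the limit without wild type replicate 3 (0.95). Of 30 sulfur and methionine genes the transporters *SUL1* (1.25) and *MMP1* (1.07) were higher, and neither was without mutant replicate 2. Of 16 genes for iron uptake, added after values were seen, 3 were higher, *FTR1* (log2FC 1.31), *FRE4* (1.34) and *ARN1* (1.02), and *ARN1* was under the limit without mutant replicate 2 (0.95) or wild type replicate 3 (0.94). None of the 16 was called without stress.
Lower genes of this kind were the chaperone *SSE2* (-1.08) among 28 heat-shock chaperones, where *SSB1* and *SSB2* were higher, the peroxisomal thiolase *POT1* (-1.33) among 42 peroxisome genes and the glucose signalling gene *MTH1* (-1.12) beside *HXT5* among 19 genes of hexose transport. The proteinase inhibitor gene *PAI3* (-1.22) was lower among 12 vacuolar genes and lost without mutant replicate 3, and *HAL5* (-1.13), a kinase of ion transport, was lost without mutant replicate 2 (-0.97). Of 31 genes of ubiquitin conjugation and removal *UBP15* (-1.26) and *UBP9* (-1.05) were lower, and of 16 aldehyde and ketone enzymes *YJR096W* and *UGA2* (-1.02). *UBP9* was under the limit without mutant replicate 1 or 2 or wild type replicate 3 (-0.99 to -0.96) and *UGA2* without mutant replicate 2 (-0.98). Of 32 nucleoporins *MLP1* (-1.60, SE 0.54) and *MLP2* (-1.22, SE 0.45) were lower with wide errors, and neither call held without mutant replicate 1 or 2 or without wild type replicate 3, where they were -0.85 and -0.52. Of 29 genes of the Ras, PKA and TOR pathways *TOD6* was higher and *YAK1* lower.

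The called genes were also described by their length and level. The median coding length was 841.5 bp in the higher genes and 1506 bp in the lower genes, against 1233 bp over all genes tested. With all genes split by length into 3 groups of like size, 11.2% of the shortest (78 to 900 bp) were higher and 2.56% lower, and of the longest (1659 to 14733 bp) 4.16% were higher and 4.38% lower. Across 5726 genes, which are not independent replicates, the rank correlation of length and log2FC was -0.32. It was -0.39 without mutant replicate 3, -0.08 with the library number term and 0.13 for the same strains without stress, and the part of gene length in the results was not tested beyond the length offsets. Assembly factors stand apart from that trend, since the 82 higher ones had a median length of 1545 bp. The level in the stressed wild type enters the fold behind each call, so it is given as a description. Its median was 8.85 CPM for the higher genes and 42.1 CPM for the lower genes, against 34.7 CPM over all genes tested. In the unstressed wild type it was 101 CPM for the higher and 7.26 CPM for the lower genes.
The strain difference upon osmostress was also set against that without stress, by the contrast of the 2 differences in the same model. It was above 0 for 905 genes and below 0 for 663 at an edgeR adjusted p under 0.05. Of the 152 assembly factors 112 were above 0 and none below, of the 138 ribosomal protein genes 135 and none, of the 7 trehalose genes none and 6, and of the 15 glycogen genes 1 and 8. For phosphate genes it was 8 above and 1 below, and for *PHO84*, whose strain difference was larger without stress, the contrast was 2.87.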

How the data were processed

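Poly(A) RNA of 12 yeast cultures, 3 of each strain with and without salt, had been sequenced in single reads of 50 bases with a stranded kit. The authors mapped the reads to the yeast genome with TopHat2 2.1.0 and deposited raw counts per gene, which they made with featureCounts 1.5.1 from uniquely mapping reads on the Ensembl R64-1-1 genes. Whether counting used strand is not given in the sources used here. They used DESeq2 1.14.1 for their own tests.

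The deposited counts were fitted in R 4.3.3 with edgeR 4.0.16 as 1 model of the 12 libraries with 1 coefficient per group, TMM factors, the filterByExpr filter and a robust quasi-likelihood fit. The contrast was Spt4-AA in NaCl minus wild type in NaCl, with Benjamini-Hochberg adjustment over 6040 genes. A gene was called at an adjusted p under 0.05 and a fold of at least 2. CPM are counts per 1000000 after TMM scaling. P-values measure the spread between the cultures within a group, estimated jointly over the 4 groups and moderated across genes, so a larger spread in the stressed mutant alone is not set apart. The members and lists were chosen with earlier results of these data known, so lists are given as counts and medians with no p. Total counts per library stand in the report, and the median SE of a log2 fold change was 0.142. Limits for counts near 0 used 3 counts and cover counting error only. On simulated data for this contrast (5968 genes, 200 of them changed by a log2 fold change of 2) the fit recovered 98% of the changed genes. Most genes called here differ by less (419 of the 468 higher and 179 of the 193 lower ones are between 2- and 4-fold). The simulation does not cover differences of that size.

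Named genes were those probed by the study and the auxotrophic markers, the 12 largest rises and falls with a symbol and no overlap between the strains, up to 4 called members of each list with at least 3 calls in 1 direction, up to 2 of the most abundant members and the called ones in other lists, and the 8 largest calls in each direction on no list. *TIF4632*, *GLG1*, *ATG5*, *ATG29*, *ATG41*, *CYC1*, *TIR3*, *MSN2*, *MSN4*, *STB3* and the genes of the lists for small nucleolar RNAs, the GID ligase and iron uptake were chosen after their values were seen.

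Sequences, positions and coding lengths came from the R64 RefSeq genome, in which 6048 of the 7126 table entries were found by their systematic name. Uniqueness is the percent of 50-base windows of a gene that occur once in R64. The alternatives tried were RLE factors, scaling by totals or to *ENO1*, DESeq2 1.42.0, no filter, at least 10 counts in every library, the 6 stressed libraries alone, a block for replicate numbers, a library number term, a test against 2-fold, offsets for gene length and leaving out each stressed library. No columns of other series were present.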

Additional observations from a re-analysis of the deposited data

Results flagged for a closer look

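The strain difference upon osmostress differed from that without stress in 1568 genes by the contrast of both differences in edgeR's quasi-likelihood test (Benjamini-Hochberg adjusted p under 0.05). Among them were 406 of the 468 genes higher in stressed Spt4-AA cells and 136 of the 193 lower ones. The deleted markers *LEU2*, *MET17* and *URA3*, which no comparison used, had 139 counts together in stressed mutant replicate 2, against 2 and 1 in the other stressed mutant libraries and 0, 0 and 2 in the stressed wild type libraries. The part of these reads in the results was not tested.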

How the results depend on the processing

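With each stressed library left out in turn, 540 to 874 genes were altered, 388 to 550 higher and 152 to 324 lower, against 661, 468 and 193 with all libraries. The highest of these came without mutant replicate 3, when 449 of the 468 higher and 184 of the 193 lower genes were called again. The term for library numbers gave 377 altered genes (251 higher, 126 lower), of which 218 higher and 101 lower were among those of the report. Testing against a 2-fold difference gave 173 (127 higher, 46 lower). Scaling by totals gave 296 higher and 371 lower genes, and scaling to *ENO1* gave 214 higher and 498 lower. Every gene lower in the report was also lower with totals, and 190 of 193 with *ENO1*. With the replicate number as a block 657 genes were altered (459 higher, 198 lower). The deviations of same-numbered libraries correlated at -0.135, 0.177 and 0.398, so the numbers were not taken to pair the cultures. The other settings (RLE factors, DESeq2, both filters, the stressed libraries alone, length offsets) gave 560 to 685 altered genes. Of 148 genes named in the report, 1 reversed under 1 setting, *STL1* at 0.001 with length offsets against -0.11. The number that no longer passed the threshold they pass in the report was 82 in the test against 2-fold, 52 with the library number term, 38 with *ENO1* scaling, 34 with length offsets, 25 with totals, 1 to 29 with a library left out and at most 3 in each other setting. The causes were not tested. DESeq2 set no adjusted p for *ASP3-1*. The low level of the higher genes in the stressed wild type, with a median of 8.85 CPM, limits the precision of their folds.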
